A study of Mus musculus with 4 samples.

Results

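The cells described are macrophages of the infarcted mouse heart that carried many transcripts of Gpnmb and of Spp1 at the same time. A cell from an infarct library was taken when it had at least 3 unique molecular identifiers (UMIs, each standing for 1 captured transcript) of Gpnmb, at least 3 of Spp1, at least 30 UMIs of C1qa, C1qb and C1qc together per 10000 UMIs, and fewer than 5 UMIs of Ctsk. Of 31295 infarct cells with 500 to 40000 UMIs and more than 200 genes, 25275 passed the C1q cut and 2608 met the whole rule. The study covered 41533 such cells in 4 droplet libraries of CSF1R-EGFP+ cells, in which the Csf1r promoter drives EGFP, from mice aged 12 to 16 weeks. The 3 infarct libraries each held the cells of 1 heart taken 7 days after surgery that ligated the left coronary artery, and the non-infarcted remote zone had been cut away before digestion. The baseline library held 3 hearts without surgery in 1 pool. All libraries were sorted for EGFP after Ly6G+ cells had been gated out, so neutrophils and cells that do not use the Csf1r promoter were depleted by the sort in each of them.

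Gpnmb encodes a transmembrane glycoprotein of lysosomes and the cell surface, and Spp1 encodes osteopontin, a secreted phosphoprotein that binds integrins and CD44. Both are transcribed in macrophages that have taken up lipid or dying cells, where Trem2, a receptor for lipids and apoptotic debris, signals through its adaptor Tyrobp. In an infarct, macrophages clear dead muscle in their lysosomes and then pass on signals to fibroblasts and vessels during scar formation.

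The cells were chosen by their Gpnmb, Spp1, C1q and Ctsk counts, so the levels of these genes are a description with no test. Levels are summed UMIs per 1000000 UMIs of the same sum (CPM). Gpnmb stood at 909, 749 and 970 CPM in the chosen cells of infarct 1, 2 and 3, against 32.8, 33.4 and 46.5 CPM in the other cells that passed the C1q cut. Spp1 stood at 4684, 4683 and 3393 CPM against 722, 835 and 547 CPM. C1qa was alike in level, at 4768 to 5966 CPM in the chosen cells and 5220 to 6536 CPM in the others, and Ctsk, the cathepsin of osteoclasts, was at 6.31 to 7.50 CPM against 1.66 to 7.93 CPM. A median chosen cell of infarct 1 held 8 Gpnmb and 28 Spp1 UMIs, and the Spp1 rate ran from 1.55 to 916 UMIs per 10000 within that library alone.

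The chosen cells made up 10.8%, 9.98% and 10.3% of the C1q-passing cells of the 3 infarct libraries, a mean of 10.3% ± 0.397 (SD, n = 3). Of all infarct cells that passed the filter they were 8.34% ± 0.211 (SD, n = 3). At baseline 48 of 6672 C1q-passing cells met the same rule, 0.719% with an exact binomial 95% interval of 0.531% to 0.953% that covers counting error only, and with 1 library there the difference has no test. UMI thresholds favour deep cells: the median chosen cell held 12001.5 to 12583.5 UMIs and the median other cell 8301.5 to 8402. When each cell was first thinned to 5000 UMIs, which left out 1650 to 2241 shallower cells per infarct library, the infarct share was 6.19% ± 0.551 (SD, n = 3) and the baseline share 0.590%.

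In number of cells the Gpnmb limit cut through the most. There were 406 chosen cells with exactly 3 Gpnmb UMIs and 586 otherwise matching cells with exactly 2, with medians of 10532 and 10100.5 UMIs. Likewise 137 had 3 Spp1 UMIs and 157 had 2. At the other limits 61 had 30 to 40 C1q UMIs per 10000 and 48 had 20 to 30, and 4 had 4 Ctsk UMIs while none had 5. The 586 cells were among 7179 high in Spp1 but under the Gpnmb limit. The 157 cells were among only 512 high in Gpnmb but under the Spp1 limit, so that smaller set lay closer to the rule. A further 275 cells were high in Gpnmb and Spp1 but under the C1q cut, with a median of 3.56 C1q UMIs per 10000. Of 71 infarct cells marked as B cells, which should lack both genes, 5 (7.04%) had at least 3 Spp1 UMIs and 3 (4.23%) at least 3 Gpnmb UMIs, at median depths of 4393.5 to 6902.5 UMIs per library. Among C1q-passing cells the share with at least 3 Spp1 UMIs was 37.2% to 40.5%.

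The libraries held 71093963 UMIs at baseline and 88157753 to 97944428 in the infarct. The median kept cell was shallower at baseline, with 6398.5 UMIs against 8469.5 to 8556.5 in the infarct libraries. Infarct libraries shared 26 to 29 cell barcodes pairwise, and 1 of these was shared among the chosen cells. Scrublet's scores, ranked because its automatic threshold marked at most 0.00990% of cells, put 8.45% to 10.8% of the chosen and 8.95% to 9.69% of the other cells among the most doublet-like. Of the 5 macrophage markers that the rule did not use, all were detected in the chosen cells of each library: Cd68 and Mertk were higher than in the other cells, Csf1r was lower, at 584, 622 and 595 CPM against 831, 809 and 843 CPM, and Adgre1 and Fcgr1 did not pass. T and NK cell markers were at or under 0.176 CPM, with Cd3e, Trac, Nkg7 and Ncr1 at 0. Markers of other cell types moved with the split. Osteoclast markers, a list that includes Ctsk of the rule, summed to 152 to 190 CPM in the chosen cells and 88.0 to 105 CPM in the others, with Acp5 and Atp6v0d2 higher and with Calcr at 0 in both. Cardiomyocyte transcripts summed to 10.1 to 11.4 CPM in the chosen cells and 34.4 to 58.3 CPM in the others, B cell transcripts to 86.5 to 126 and 222 to 255 CPM, and monocyte transcripts to 198 to 384 and 604 to 967 CPM. Their part in the results below was not tested.

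The first comparison asked what else set these cells apart from the other C1q-passing cells of the same hearts. UMIs were summed per library and cell set and compared with edgeR's quasi-likelihood test, with the library as a block and the genes of the rule left out of the test. The chosen cells were higher in genes of lipid handling, of the lysosome and its proton pump, and of antioxidant and iron handling, and lower in all tested MHC class II genes, most chemokines and all tested immediate-early genes. Of 12725 genes tested, 1644 (12.9%) were higher and 1358 (10.7%) lower at a Benjamini-Hochberg adjusted p under 0.01, and 156 (1.23%) and 339 (2.66%) of them by at least 2-fold. In either direction 23.6% passed, and the median log2 fold change over all genes tested was -0.01. The libraries of the 2 sets did not overlap in 38.7% of genes tested. Without infarct 1 the counts fell to 816 higher and 736 lower.

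**Figure D1:**
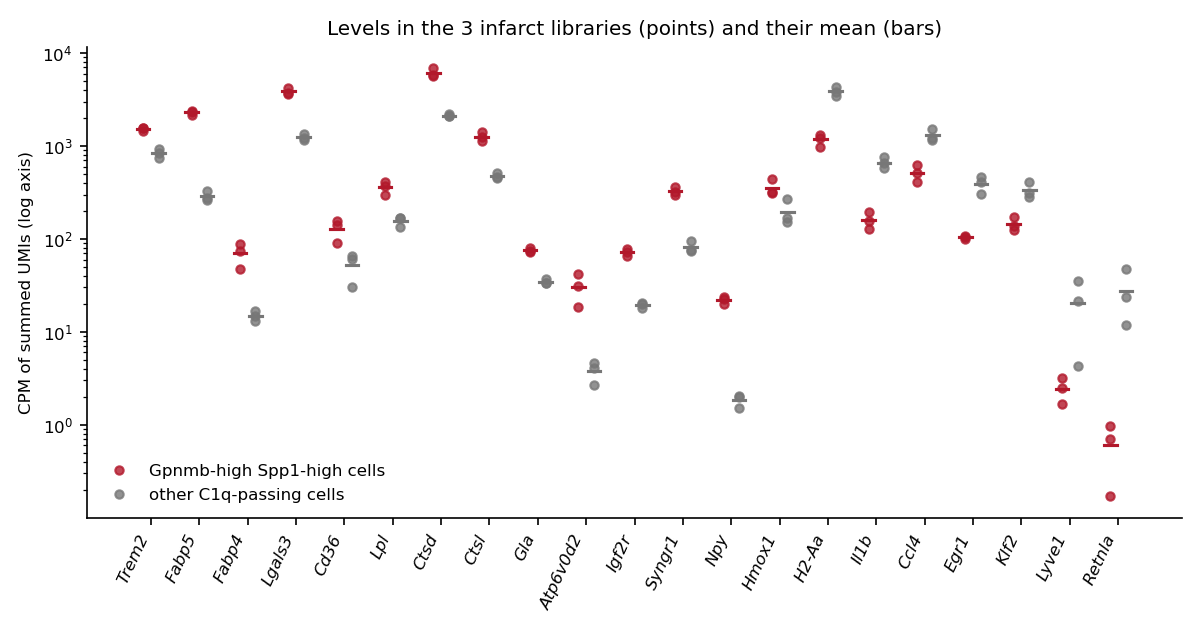
Level of 21 genes in CPM of summed UMIs (log axis) in the Gpnmb-high Spp1-high cells (red) and in the other C1q-passing cells (grey) of the 3 infarct libraries, with a point for each library and a bar for the mean. Fabp5 stood at 2176 to 2376 CPM in the chosen cells and at 259 to 325 CPM in the others, while Retnla lay under 1 CPM in the chosen cells of all 3 libraries.

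Trem2 was not in the rule, but it was named beforehand as a marker of these cells with earlier results of these data known. Its level is therefore no independent support for the choice of cells. Trem2 stood at 1452, 1564 and 1571 CPM in the chosen cells and at 733, 933 and 845 CPM in the others. The sets did not overlap, and Trem2 was higher by a log2 fold change of 0.96 ± 0.05 (SE, n = 3, edgeR adjusted p = 3.3e-07). Fabp5, a carrier of fatty acids, was at 2332, 2376 and 2176 CPM against 259, 325 and 274 CPM, which gave a log2 fold change of 3.10 ± 0.06 (SE, n = 3, edgeR adjusted p = 7.9e-10). Every library showed it several times higher in the chosen cells. Its relative Fabp4 was lower in level but also higher in the chosen cells, at 88.0, 47.2 and 74.8 CPM against 17.0, 13.2 and 14.8 CPM (log2 2.29 ± 0.10). Of the 21 tested genes of a list of lipid-associated macrophage genes, 17 were higher and 1, the receptor kinase Axl, was lower (log2 -0.67 ± 0.07), with a list median of 0.96. The list includes Trem2, whose own value is this median. The list was also chosen with earlier results of these data known, so its counts are no independent support for the choice of cells. The galectin Lgals3 rose by 1.72 ± 0.07 on the log2 scale, the lipid scavenger receptor Cd36 by 1.43 ± 0.06 and lipoprotein lipase Lpl by 1.29 ± 0.05. Apoe, the main lipid carrier of macrophages, was higher by 0.27 ± 0.05 with overlapping libraries, at 37346 to 46303 CPM against 31106 to 43271 CPM, and did not pass without infarct 3 (adjusted p = 0.0462).

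Storage and release of lipid followed in part. Among 19 fatty acid and lipid droplet genes, 11 were higher and 3 lower, with a median of 0.56. Plin2, which coats lipid droplets, was at 671, 637 and 574 CPM against 314, 364 and 253 CPM, and all chosen-cell libraries lay above the others. Soat1, which esterifies cholesterol for storage, rose by 0.72 ± 0.04, and Lipa, the acid lipase that frees it again in the lysosome, by 0.86 ± 0.05. The acyl-CoA synthetases Acsl3 and Acsl4 and the oxidised-LDL receptor Olr1 were lower. Of 13 cholesterol efflux genes 4 were higher, the transporters Abca1 (0.35 ± 0.04) and Abcg1 (0.48 ± 0.07, with overlapping libraries) and the liver X receptor Nr1h3 (0.90 ± 0.13) beside Apoe. Nr1h3 did not pass after thinning to 2000 UMIs per cell (adjusted p = 0.018) or in cells of 6000 to 12000 UMIs (adjusted p = 0.0107). Of 12 genes of cholesterol synthesis none was higher and 4 were lower, among them the isomerase Idi1 and the sterol-sensing regulator Insig1, but none of the 4 passed without infarct 1.

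Lysosomal genes were higher as a group. Cathepsin D, Ctsd, was at 6821, 5692 and 5820 CPM in the chosen cells and at 2179, 2110 and 2076 CPM in the others, so that the lowest chosen-cell library exceeded the highest of the others by a wide margin (log2 1.61 ± 0.05, edgeR adjusted p = 9.9e-09). Ctsl followed at 1237, 1408 and 1139 CPM against 458, 513 and 447 CPM, again with no overlap (log2 1.50 ± 0.04). In all, 20 of 24 hydrolases and cofactors were higher and none lower, with a median of 0.52, and the count was 14 to 21 over the alternatives run. The protease Ctsb (1.22 ± 0.05), the alpha-galactosidase Gla (1.21 ± 0.06) and the saposin precursor Psap (1.07 ± 0.04) led after these, whereas Ctsh and Manba were among the 4 that did not pass. Among the membrane proteins of the lysosome 8 of 12 were higher, with Cd68 at 1.13 ± 0.05, the chloride transporter Clcn7 at 0.81 ± 0.05 and the cholesterol exporter Npc1 at 0.65 ± 0.04.

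The proton pump that acidifies the lysosome, the V-ATPase, had 14 of 17 subunits higher and none lower, with a median of 0.44. Atp6v0d2, a subunit that osteoclasts and some macrophages use, differed most, at 31.2, 18.6 and 42.2 CPM against 2.68, 4.05 and 4.63 CPM (log2 3.07 ± 0.19, edgeR adjusted p = 8.3e-07). The widely used subunits Atp6v1a and Atp6v1c1 rose by 0.87 ± 0.04 and 0.77 ± 0.04. Igf2r, the mannose 6-phosphate receptor that brings new hydrolases to the lysosome, stood at 72.5, 66.0 and 77.5 CPM against 20.5, 18.0 and 19.8 CPM, with no overlap (log2 1.98 ± 0.06). Of 12 transcription factors and regulators around the MiT-TFE family, which drives lysosomal genes from E-box sites, 8 were higher and none lower, with a median of 0.30. These included Mitf itself (0.33 ± 0.05, with overlapping libraries), Tfec (0.51 ± 0.08), Bhlhe41 (0.95 ± 0.07), a repressor that also binds E-boxes, and Fnip2 (0.92 ± 0.06), a partner of folliculin. Tfeb was at 33.6, 28.5 and 30.9 CPM against 33.1, 28.4 and 28.3 CPM and Tfe3 at 54.5, 52.4 and 57.1 CPM against 63.8, 55.3 and 60.2 CPM, and neither passed. Without infarct 1, and also after thinning, this list had 4 genes higher. Without infarct 1 Mitf (adjusted p = 0.0104) and Tfec (adjusted p = 0.0185) did not pass.

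The promoters of several of these genes hold the palindrome CACGTG, the core E-box, or TCATGTG, the M-box, read on either strand, and neither motif contains the other. The following 30-base windows around a motif come from RefSeq promoters on GRCm38.p6 (250 bases before to 50 after the start of the gene), are written 5′ to 3′ on the strand of the gene, and have the motif in capitals. They are shown because these genes are among the lysosomal, lipid and leading genes that were higher.
Ctsd, chr7:142387908-142387937, minus strand: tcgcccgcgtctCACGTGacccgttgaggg
Ctsl, chr13:64370739-64370768, minus strand: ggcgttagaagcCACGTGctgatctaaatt
Gla, chrX:134601182-134601211, minus strand: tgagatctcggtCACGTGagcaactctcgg
Gla, chrX:134601198-134601227, minus strand: gagcatctacgTCATGTGagatctcggtca
Igf2r, chr17:12769696-12769725, minus strand: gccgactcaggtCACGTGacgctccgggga
Igf2r, chr17:12769780-12769809, minus strand: gcgtgcgatgcTCATGTGacccgggactgg
Lamp1, chr8:13159088-13159117, plus strand: agggcaagatatCACGTGgtccagcgccca
Atp6v1a, chr16:44139373-44139402, minus strand: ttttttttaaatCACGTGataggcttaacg
Clcn7, chr17:25133364-25133393, plus strand: tccgtcgtcagtCACGTGggcaccgatgat
Plin2, chr4:86670046-86670075, minus strand: cagctgggctatCACGTGgctcggaggctt
Pdpn, chr4:143299691-143299720, minus strand: aactgtttactgCACGTGgcccccttttct
Mmp12, chr9:7347280-7347309, plus strand: tgctgttacttCACATGAttctgaagtaaa
The CACGTG shown for Igf2r lay 7 bases before the start of the gene and that of Plin2 4 bases, while that of Ctsl lay 236 bases before it. In Mmp12 the M-box is on the opposite strand and so reads CACATGA. Of 9685 tested genes with a promoter in the table, 11.8% held CACGTG and 2.84% TCATGTG. The shares were 13.3% and 5.41% among genes higher in the chosen cells, 12.6% and 8.11% among those higher by 2-fold, and 9.75% and 2.12% among those lower by 2-fold. CACGTG was found in 7 of 18 hydrolase promoters and 4 of 12 V-ATPase promoters, and TCATGTG in 4 of 18 and 1 of 12. These are matches of letters, without a test, and say nothing of binding.

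Antioxidant and iron genes were the next group. Of 17 tested, 12 were higher and none lower, with a median of 0.51. Heme oxygenase Hmox1 stood at 442, 310 and 318 CPM against 270, 167 and 150 CPM (log2 0.98 ± 0.06), the ferritin chains Ftl1 and Fth1 rose by 0.99 ± 0.07 and 0.68 ± 0.05, and the iron exporter Slc40a1 by 1.24 ± 0.08. Peroxiredoxin Prdx1 and the glutathione synthesis subunit Gclm rose by 0.87 ± 0.06 and 0.75 ± 0.06. In energy metabolism the differences were small: 17 of 20 respiratory chain genes were higher but with a median of 0.25, and the count was 5 without infarct 1, 11 without infarct 3, and 2 when both sets were limited to cells of 6000 to 12000 UMIs. Of 16 glycolysis genes 7 were higher and 2 lower, led by Hk3 (1.10 ± 0.07) and Pkm (0.69 ± 0.04), with 3 higher in the depth-limited cells.

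**Figure D2:**
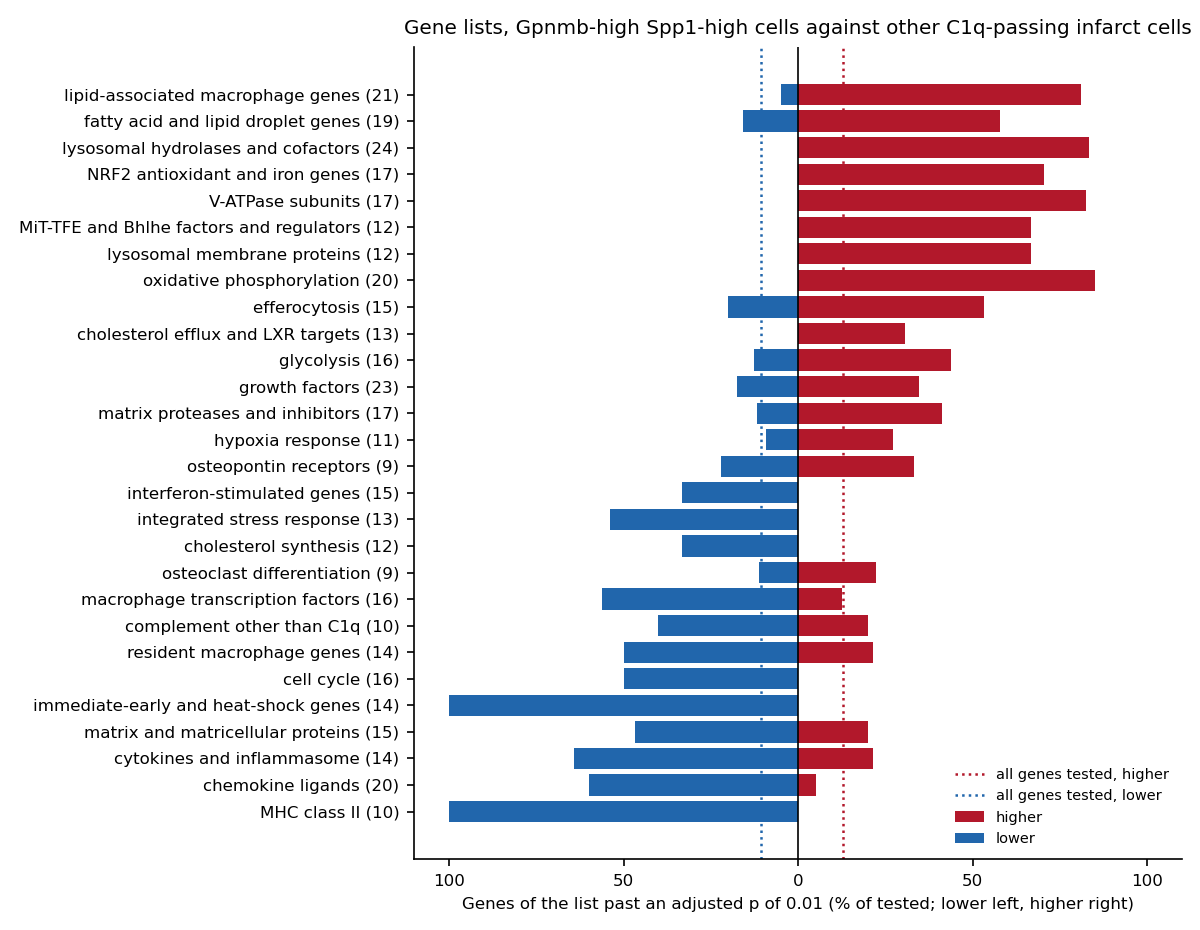
Share of the tested genes of each list (number in brackets) that were higher (red, to the right) or lower (blue, to the left) in the Gpnmb-high Spp1-high cells at an adjusted p under 0.01, with dotted lines at the shares over all genes tested, 12.9% higher and 10.7% lower, and lists ordered by median log2 fold change. Lipid and lysosomal lists lie far to the right of the dotted line, and MHC class II and immediate-early genes reach 100% to the left.

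The other leading genes came from varied functions. Npy, the precursor of neuropeptide Y, had the largest change among those higher, at 19.9, 23.5 and 22.5 CPM against 2.04, 1.53 and 2.00 CPM (log2 3.66 ± 0.12, edgeR adjusted p = 1.7e-08). Syngr1, a protein of synaptic-like vesicles, was at 360, 299 and 320 CPM against 75.4, 95.5 and 74.7 CPM (log2 2.09 ± 0.10). Neither gene overlapped between the sets. Aminopeptidase N, Anpep, rose by 1.85 ± 0.06, the interleukin 7 receptor Il7r by 1.78 ± 0.09, podoplanin, Pdpn, by 1.77 ± 0.08 and the creatine transporter Slc6a8 by 1.74 ± 0.08. The sheddase Adam8 (1.74 ± 0.06) and the macrophage elastase Mmp12 (1.72 ± 0.07) stood out among matrix proteases, where 7 of 17 genes were higher and 2 lower (5 without infarct 2), and the collagenase Mmp8 rose by 2.43 ± 0.19 from a low level of 1.18 to 1.64 CPM.

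MHC class II genes, which present peptides to CD4 T cells, were lower throughout: 10 of 10 tested passed, with a median of -1.45. H2-Eb1 stood at 968, 754 and 945 CPM in the chosen cells and at 3451, 3264 and 2919 CPM in the others (log2 -1.77 ± 0.08, edgeR adjusted p = 9.0e-08). H2-Aa followed at 1322, 975 and 1224 CPM against 4317, 3801 and 3434 CPM, and neither gene overlapped between the sets. The invariant chain Cd74 fell by 1.57 ± 0.06 on the log2 scale and Ciita, the transactivator of the class II genes, by 1.42 ± 0.11. Cell by cell the chosen macrophages were uneven in this. Their summed class II level had a median of 5.85 to 10.7 UMIs per 10000 in the 3 libraries, but 1 cell in 10 exceeded 162 to 217, while the median of the other cells was 71.1 to 129. Lysosomal hydrolases had medians of 339 to 365 UMIs per 10000 in the chosen cells against 187 to 197 in the others.

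Inflammatory transcripts were lower. Il1b was at 156, 193 and 127 CPM against 652, 752 and 579 CPM, with no overlap (log2 -1.98 ± 0.05, edgeR adjusted p = 1.5e-09). Of 14 cytokine and inflammasome genes 9 were lower, among them Tnf (-1.13 ± 0.06), Nlrp3 (-0.99 ± 0.07) and the NF-kappaB inhibitor and target Nfkbia (-1.02 ± 0.04). Il1rn, the antagonist of the interleukin 1 receptor, was among the 3 that were higher, by 0.63 ± 0.09, but in cells of 6000 to 12000 UMIs none of the list was higher (Il1rn adjusted p = 0.0958). Of 20 chemokine ligands 12 were lower, including Ccl4 (-1.26 ± 0.05) and Cxcl2 (-1.11 ± 0.04), and 1 was higher, Ccl8 (0.50 ± 0.05, with overlapping libraries). The monocyte chemoattractants Ccl2 and Ccl7 did not pass, at 243, 228 and 133 CPM against 244, 253 and 189 CPM and at 117, 141 and 59.7 CPM against 113, 127 and 89.4 CPM. Interferon-stimulated genes gave 5 lower of 15, with 3 without infarct 2, 2 without infarct 3, 1 after thinning and 8 in cells of 6000 to 12000 UMIs.

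All 14 immediate-early and heat-shock genes tested were lower, with a median of -0.64. Egr1, an early growth response factor, was at 99.3, 105 and 106 CPM against 414, 301 and 458 CPM, with no overlap (log2 -1.80 ± 0.09), and Ier2 and Nr4a1 fell by 1.19 ± 0.05 and 1.17 ± 0.06. Among 16 macrophage transcription factors 9 were lower and 2 higher. Klf2, a factor that restrains inflammation, fell by 1.12 ± 0.09 and Klf4 by 0.49 ± 0.05, whereas Spi1, at 422, 458 and 431 CPM against 478, 515 and 469 CPM, did not pass.

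Several genes of resident and other macrophage states were lower. Retnla, a secreted protein of alternatively activated macrophages, was at 0.970, 0.170 and 0.698 CPM in the chosen cells, 21 UMIs in all, against 47.8, 11.8 and 23.9 CPM, the largest change among the named genes (log2 -5.40 ± 0.14, edgeR adjusted p = 3.1e-09). The hyaluronan receptor Lyve1 was at 3.18, 2.47 and 1.66 CPM against 21.3, 4.32 and 35.4 CPM, and the scavenger receptors Marco (-2.90 ± 0.31) and Cd163 (-2.57 ± 0.15) were lower as well. Lyve1 did not pass DESeq2's Wald test (adjusted p = 0.0209). Among the other cells infarct 2 held the lowest levels of Retnla, Lyve1, Marco and Cd163. The resident list as a whole gave 7 lower and 3 higher of 14, with 3 lower without infarct 1 and 5 higher without infarct 3, and the members higher were Gas6 (0.65 ± 0.07), a bridging molecule for dying cells, the selenium carrier Selenop (0.37 ± 0.04, with overlapping libraries) and the scavenger receptor Stab1 (0.35 ± 0.06, adjusted p = 0.0134 without infarct 1). Folr2, the folate receptor of resident macrophages, was at 57.0, 86.4 and 67.6 CPM against 69.8, 50.1 and 72.7 CPM and did not pass. The 6 resident macrophage markers, Folr2 among them, summed to 88.7, 114 and 93.8 CPM against 170, 92.9 and 191 CPM, so infarct 2 went the other way.

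The remaining genes that led the lower side were the lectin Mgl2 (log2 -2.35 ± 0.12), the receptor Lilra5 (-2.23 ± 0.08), the sialyltransferase St3gal6 (-2.11 ± 0.11), the sialic acid receptor Siglece (-2.04 ± 0.07), cyclin D2, Ccnd2 (-2.08 ± 0.15), and Ifitm6 (-1.96 ± 0.19). Saa3, an acute-phase protein, was lower within each heart but varied so much between hearts that the sets overlapped, at 327, 12.3 and 105 CPM against 1652, 70.0 and 618 CPM (log2 -2.36 ± 0.05). Cardiac troponin T, Tnnt2, belongs to the cardiomyocyte markers given above and was at 3.26, 3.49 and 4.36 CPM against 15.4, 23.4 and 29.7 CPM (log2 -2.53 ± 0.11). The monocyte receptor Ccr2 fell by 1.38 ± 0.07, from 435 to 675 CPM in the other cells to 135 to 258 CPM in the chosen cells.

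Of 15 genes of efferocytosis, the uptake of dying cells, 8 were higher and 3 lower, and 5 were higher without infarct 1. Mfge8, a bridge between phosphatidylserine and integrins, was at 22.9, 27.5 and 32.4 CPM against 8.72, 10.7 and 11.3 CPM (log2 1.52 ± 0.07), and the scavenger Lrp1 rose by 0.79 ± 0.04 and the receptor kinase Mertk by 0.43 ± 0.05. Axl, the relative of Mertk, was lower in each library, with at most 96.2 CPM in the chosen cells against 143, 119 and 130 CPM in the others.

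The second question was how the chosen cells differed from cells high in Gpnmb alone or in Spp1 alone. The C1q-passing infarct cells with fewer than 5 Ctsk UMIs fell into the chosen cells, 512 cells high in Gpnmb only, 7179 high in Spp1 only and 14960 high in neither. Of the Gpnmb-high cells 79.2% to 87.1% per library were also Spp1-high, and of the Gpnmb-low cells 31.0% to 34.5%. Deeper cells pass both limits more easily. The median chosen cell held 12001.5 to 12583.5 UMIs and the median cell high in neither gene 7759 to 7846. The part of depth in these shares was not tested. These comparisons share the sums of the chosen cells, so their values stand side by side and are not independent of each other. Nor were the sets matched in the gene they share. Gpnmb was at 749 to 970 CPM in the chosen cells and 510 to 566 CPM in the Gpnmb-only cells. Spp1 was at 3393 to 4684 CPM in the chosen cells and 1390 to 1931 CPM in the Spp1-only cells. The split therefore does not separate differences that go with Gpnmb from those that go with Spp1.

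**Figure D3:**
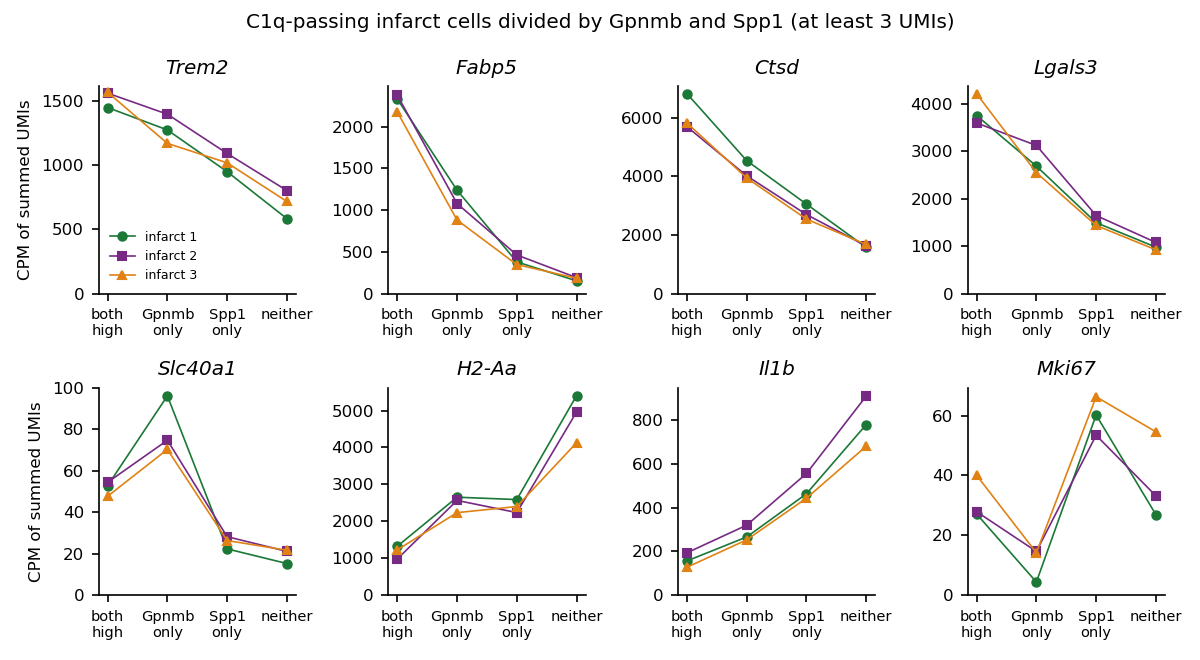
Level of 8 genes in CPM of summed UMIs in cells high in both Gpnmb and Spp1, in Gpnmb only, in Spp1 only and in neither, with a line for each of the 3 infarct libraries and axes that start at 0. Fabp5 and Ctsd step down from left to right, H2-Aa and Il1b step up, Slc40a1 peaks in the Gpnmb-only cells, and Mki67 is lowest there.

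Against the Spp1-only cells the chosen cells differed widely. Of 11738 genes tested, 1205 (10.3%) were higher and 1232 (10.5%) lower at an edgeR adjusted p under 0.01 (20.8% in either direction), with 0.784% higher and 2.0% lower by at least 2-fold. The median over all genes was -0.02, and the libraries did not overlap in 34.0% of genes. Fabp5 was at 2332, 2376 and 2176 CPM against 379, 462 and 347 CPM (log2 2.61 ± 0.05), Trem2 rose by 0.65 ± 0.03 and Ctsd by 1.22 ± 0.03. Lysosomal hydrolases gave 20 higher of 24 (median 0.40), the V-ATPase 14 of 17 (median 0.32) and the lipid-associated list 18 of 21 (median 0.71). Npy (2.94 ± 0.16), Atp6v0d2 (2.73 ± 0.12), Fabp4 (2.36 ± 0.08), Anpep (1.56 ± 0.07) and Syngr1 (1.51 ± 0.07) led the higher genes beside Fabp5. On the lower side stood Marco (-2.29 ± 0.15), Saa3 (-2.15 ± 0.06, with overlapping libraries), the eosinophil chemoattractant Ccl24 (-1.92 ± 0.16), St3gal6 (-1.85 ± 0.12), Mgl2 (-1.75 ± 0.13) and Siglece (-1.67 ± 0.07).

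In the same comparison 14 of 16 cell cycle genes were lower (median -0.75) and none higher. Mki67, a marker of dividing cells, was at 27.1, 27.9 and 40.0 CPM in the chosen cells and at 60.2, 53.4 and 66.3 CPM in the Spp1-only cells, with no overlap (log2 -0.86 ± 0.07, edgeR adjusted p = 5.3e-07). Top2a, the topoisomerase of dividing cells, fell by 1.05 ± 0.07. Limited to cells of 6000 to 12000 UMIs, 9 of the list were lower. MHC class II genes were lower in 8 of 10 cases (median -0.97) and chemokines in 14 of 19 (median -0.80).

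Against the Gpnmb-only cells the differences were fewer. Of 10560 genes tested, 103 (0.975%) were higher and 82 (0.777%) lower at an edgeR adjusted p under 0.01 (1.75% in either direction), with 0.294% higher and 0.152% lower by at least 2-fold. The median over all genes was -0.01, the libraries did not overlap in 17.0% of genes, and the Gpnmb-only sums held 125 to 228 cells per library. Without infarct 2 the lower count was 142. In cells of 6000 to 12000 UMIs only 6 genes were higher and 10 lower, and after thinning to 2000 UMIs per cell 39 and 28. The median chosen cell held 12001.5 to 12583.5 UMIs and the median Gpnmb-only cell 9540 to 10409. Fabp5 was at 2332, 2376 and 2176 CPM against 1238, 1079 and 881 CPM (log2 1.13 ± 0.06), with no overlap. Ctsl (1.09 ± 0.06), Cd36 (1.11 ± 0.11) and Fabp4 (1.31 ± 0.11) were higher too, and in the lipid-associated list 11 of 21 were higher (median 0.40) and none lower. In cells of 6000 to 12000 UMIs 4 of 19 in that list were higher, and Cd36 (0.65, adjusted p = 0.0356) and Fabp4 (0.69, adjusted p = 0.60) did not pass. Trem2, at 1452, 1564 and 1571 CPM against 1277, 1400 and 1172 CPM, passed by a small difference (0.27 ± 0.05, edgeR adjusted p = 0.0051) that did not pass without infarct 3 (adjusted p = 0.24) or in cells of 6000 to 12000 UMIs (adjusted p = 0.0249). Hydrolases gave 7 higher of 24 (median 0.17), 4 without infarct 3 and 3 in cells of 6000 to 12000 UMIs. Other groups that were higher in the first comparison passed less often here. V-ATPase subunits gave 2 higher of 17 (median 0.11) and the MiT-TFE list none of 12 (median -0.03). Antioxidant and iron genes gave 1 higher and 2 lower of 16 (median -0.06), and respiratory chain genes 1 higher of 20 (median 0.10).

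MHC class II genes were lower here as well, in 7 of 10 cases with a median of -1.03. H2-Aa was at 1322, 975 and 1224 CPM against 2651, 2564 and 2233 CPM and H2-Eb1 at 968, 754 and 945 CPM against 2143, 2059 and 1733 CPM, both without overlap and both past the threshold in all 9 alternatives. Pdpn (1.80 ± 0.21), Atp6v0d2 (1.79 ± 0.19) and the interferon-induced chemokine Cxcl10 (1.65 ± 0.14) led the higher genes with 3 genes of dividing cells, the histone Hist1h1b (1.80 ± 0.24), Birc5 (1.79 ± 0.28) and Mki67 (1.51 ± 0.19). Of 16 cell cycle genes 6 were higher (median 0.94), but none passed in cells of 6000 to 12000 UMIs or after thinning to 2000 UMIs per cell. Hist1h1b, which is not in that list, did not pass in those cells (0.30, adjusted p = 0.926) or after thinning (adjusted p = 0.0585). Neither Hist1h1b nor Birc5 passed DESeq2's Wald test (adjusted p = 0.138 for each). In cells of 6000 to 12000 UMIs Pdpn (adjusted p = 0.0338), Atp6v0d2 (adjusted p = 0.178) and Cxcl10 (adjusted p = 0.0147) did not pass either, and after thinning Pdpn (adjusted p = 0.178) and Atp6v0d2 (adjusted p = 0.149) did not. Lower were Marco (-3.14 ± 0.34) and Ccl5 (-2.08 ± 0.28), both with overlapping libraries, the proteoglycan Bgn (-1.32 ± 0.19), the monocyte gene Plac8 (-1.23 ± 0.16), H2-Eb1 and H2-Aa. Fibroblast markers summed to 164 CPM in the Gpnmb-only cells of infarct 3 and to 37.4 to 39.8 CPM in those of infarct 1 and 2, and the part of this in the Bgn value was not tested. Bgn did not pass without infarct 3 (adjusted p = 0.0184) or in cells of 6000 to 12000 UMIs (-0.56, adjusted p = 0.54). In those cells Ccl5 (-0.25, adjusted p = 0.742) and Plac8 (-0.71, adjusted p = 0.755) did not pass either, Bgn and Plac8 also failed after thinning (adjusted p = 0.159 and 0.0233), and Ccl5, Marco and Plac8 did not pass DESeq2's Wald test (adjusted p = 0.554, 0.324 and 0.0918).

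The iron exporter Slc40a1 was at 52.8, 54.5 and 47.7 CPM in the chosen cells, higher than in the Spp1-only cells at 22.3, 28.2 and 26.3 CPM (log2 1.08 ± 0.07, edgeR adjusted p = 6.1e-08) and lower than in the Gpnmb-only cells at 96.2, 74.8 and 70.3 CPM (log2 -0.61 ± 0.09, edgeR adjusted p = 0.00041). The sets did not overlap in either comparison, but the difference from the Gpnmb-only cells did not hold in every setting. It missed the threshold without infarct 1 (adjusted p = 0.0123), after thinning (-0.41, adjusted p = 0.452) and in cells of 6000 to 12000 UMIs (-0.20, adjusted p = 0.749).

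The chosen cells were then ranked within each library by their Spp1 rate and cut into 3 groups of equal size, and the highest tercile was compared with the lowest, 281 to 300 cells each per library. Spp1 itself, which made the groups, was at 7947 to 11081 CPM against 482 to 667 CPM. Gpnmb, a gene of the rule, was at 932 to 1374 CPM against 580 to 671 CPM. Of 9808 genes tested, 616 (6.28%) were higher with more Spp1 and 499 (5.09%) lower at an edgeR adjusted p under 0.01 (11.4% in either direction), and 0.612% and 0.53% by at least 2-fold. The median over all genes was -0.01, and the libraries did not overlap in 28.6% of genes. Without infarct 1 the counts were 345 and 218. The cells with most Spp1 were higher in lipid uptake and glycolysis genes and lower in MHC class II and immediate-early genes. Of 14 immediate-early and heat-shock genes 13 were lower (median -0.57) and none higher. Leaving out any heart gave 12 lower, thinning to 2000 UMIs gave 10 of 13, and dropping the library block gave 8.

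**Figure D4:**
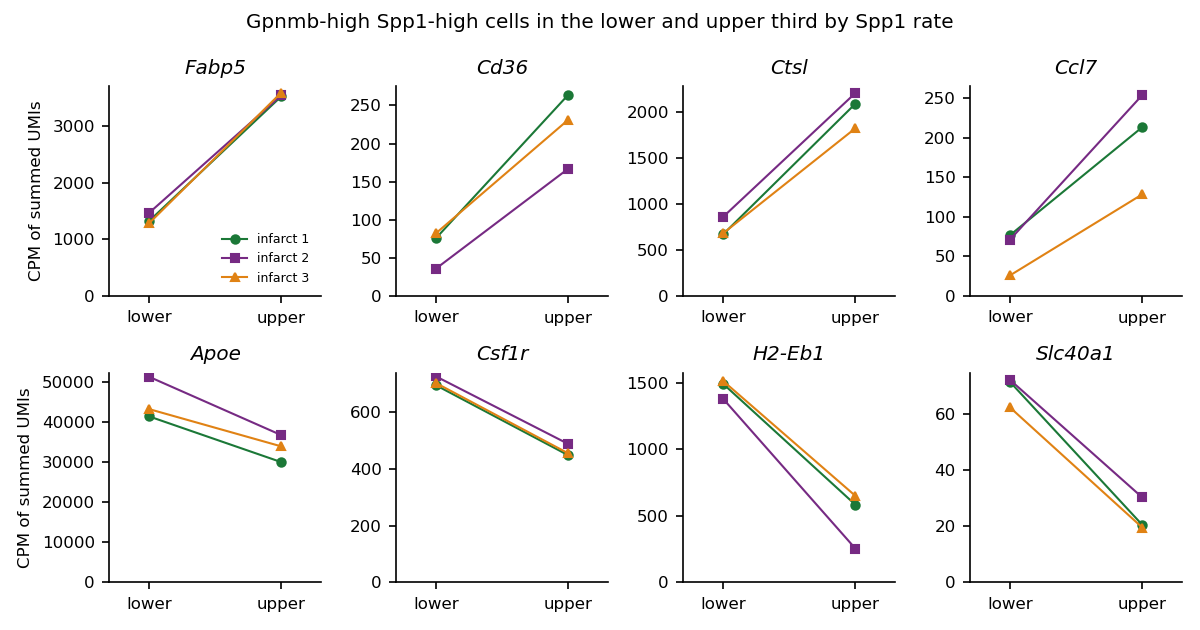
Level of 8 genes in CPM of summed UMIs in the lowest and the highest tercile of the Gpnmb-high Spp1-high cells by Spp1 rate, with a line for each of the 3 infarct libraries and axes that start at 0. Lines of Fabp5, Cd36, Ctsl and Ccl7 rise and lines of Apoe, Csf1r, H2-Eb1 and Slc40a1 fall in all 3 libraries.

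Fabp5 rose from 1323, 1466 and 1284 CPM in the lowest tercile to 3528, 3546 and 3595 CPM in the highest (log2 1.42 ± 0.04, edgeR adjusted p = 1.2e-11), and Cd36 from 75.8, 35.9 and 82.3 CPM to 264, 167 and 231 CPM (log2 1.82 ± 0.09). Both separated the terciles in every library. Of 16 fatty acid and lipid droplet genes 9 were higher (median 0.56) and none lower, and of 16 glycolysis genes 10 were higher (median 0.55) and none lower, with Pgam1 at 0.88 ± 0.05 and Pkm at 0.84 ± 0.05. The V-ATPase gave 12 higher of 17 (median 0.33), with 7 without infarct 1 and 3 of 16 both after thinning and in cells of 6000 to 12000 UMIs. Trem2 was higher by only 0.27 ± 0.03, at 1544, 1647 and 1691 CPM against 1306, 1420 and 1395 CPM, and did not pass after thinning. The dehydrogenase Dhrs9 (2.70 ± 0.20), Pdpn (2.11 ± 0.13), Npy (1.92 ± 0.15), the Purkinje cell protein relative Pcp4l1 (1.90 ± 0.18) and Ccl7 (1.83 ± 0.10) led the higher genes with Cd36. Il1rn rose by 1.72 ± 0.12 and the monocyte chemoattractant Ccl2 by 1.42 ± 0.14, while Ccl3 and Ccl4 fell by 0.65 ± 0.06 and 0.61 ± 0.04.

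All 7 MHC class II genes tested were lower with more Spp1, with a median of -1.50. H2-Eb1 was at 583, 254 and 650 CPM against 1491, 1379 and 1512 CPM, with no overlap (log2 -1.61 ± 0.15, edgeR adjusted p = 2.3e-06), and H2-Ab1 and Ciita fell by 1.51 ± 0.14 and 1.52 ± 0.15. Slc40a1 fell from 71.3, 72.0 and 62.2 CPM to 20.5, 30.2 and 19.5 CPM (log2 -1.52 ± 0.11), and Spic, a factor of iron-recycling macrophages, by 2.03 ± 0.30. Hmox1 went the other way, at 527, 439 and 390 CPM against 330, 248 and 285 CPM (log2 0.68 ± 0.06). In cells of 6000 to 12000 UMIs neither Slc40a1 (-1.16, adjusted p = 0.0215) nor Hmox1 (adjusted p = 0.115) passed. Ccl5 fell by 1.63 ± 0.14 and the prostaglandin dehydrogenase Hpgd by 1.61 ± 0.09.

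Of the 5 macrophage markers outside the rule, 1 was higher with more Spp1, Cd68 (0.72 ± 0.04), and 2 were lower, Csf1r and Adgre1 (-0.27 ± 0.04, with overlapping libraries). Adgre1 did not pass after thinning (adjusted p = 0.0352) or in cells of 6000 to 12000 UMIs (adjusted p = 0.0508). Csf1r, the receptor for the macrophage growth factor and the promoter behind the EGFP sort, was at 448, 488 and 455 CPM with most Spp1 and at 695, 726 and 703 CPM with least (log2 -0.58 ± 0.04, edgeR adjusted p = 1.5e-07). Apoe fell by 0.40 ± 0.02 and Selenop by 0.74 ± 0.03, and the call for Apoe was lost in cells of 6000 to 12000 UMIs (-0.25, adjusted p = 0.015). Of 15 macrophage transcription factors 7 were lower, among them Maf (-0.60 ± 0.05), with 3 without infarct 1, 3 of 13 in cells of 6000 to 12000 UMIs and 2 of 12 after thinning. Folr2 rose by 1.23 ± 0.08, at 79.7, 140 and 93.2 CPM against 37.4, 57.5 and 40.9 CPM, without overlap. The platelet factor Pf4, which macrophages also make, rose by 1.22 ± 0.11.

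At baseline the 48 cells that met the rule held 842554 UMIs and a median of 17579 UMIs per cell. They came from 1 pool, so there is no test, and the intervals below are exact Poisson intervals at 95% for counting error only. Their Fabp5 level was 3324 CPM (3202 to 3450) against 2176 to 2376 CPM in the infarct cells of the same rule, and their Lgals3 level 6511 CPM (6340 to 6686) against 3592 to 4207 CPM. Both lay above all 3 infarct libraries. Trem2 was lower at baseline, at 945 CPM (880 to 1013) against 1452 to 1571 CPM, and so was Ctsl, at 612 CPM (561 to 668) against 1139 to 1408 CPM. Ctsd differed less, at 5452 CPM (5296 to 5612) against 5692 to 6821 CPM, but all 3 infarct libraries lay above its baseline interval. Syngr1 was close, at 306 CPM (270 to 346) against 299 to 360 CPM.

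**Figure D5:**
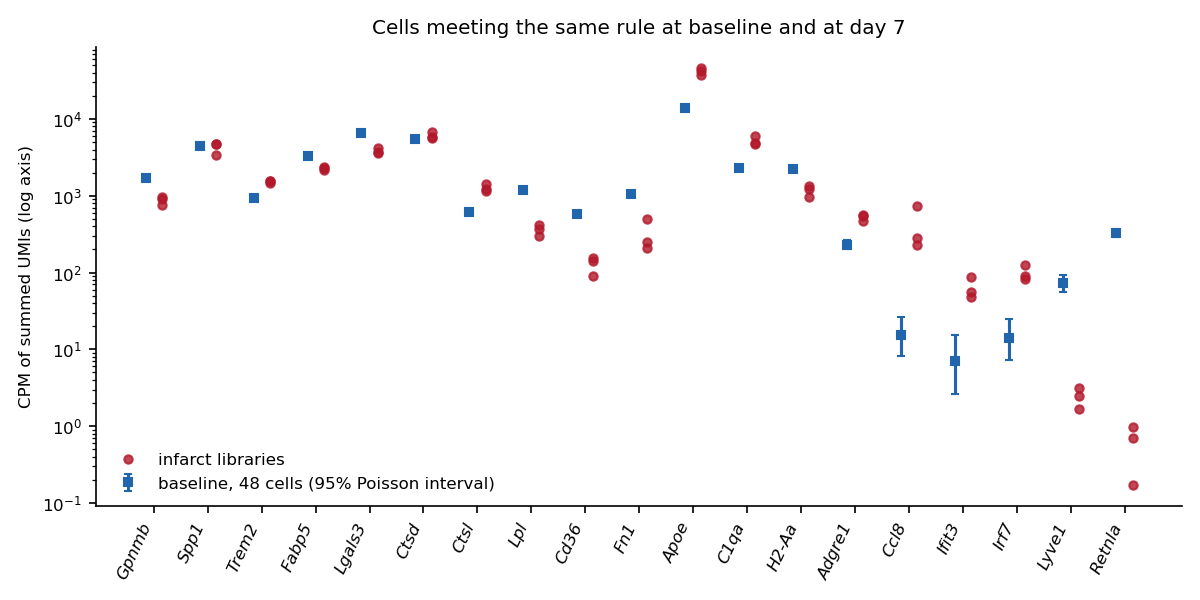
Level of 19 genes in CPM of summed UMIs (log axis) in the 48 baseline cells that met the rule (blue squares, with 95% Poisson intervals) and in the Gpnmb-high Spp1-high cells of the 3 infarct libraries (red points). Gpnmb, Fabp5, Lgals3, Lpl, Cd36, Lyve1 and Retnla lie higher at baseline, and Trem2, Ctsl, Apoe, Ccl8, Ifit3 and Irf7 higher in the infarct.

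Other genes differed far more. Retnla was at 325 CPM (288 to 366) in the baseline cells and under 1 CPM in each infarct library, and Lyve1 at 73.6 CPM (56.4 to 94.3) against 1.66 to 3.18 CPM. Lpl (1171 CPM, 1099 to 1247) and Cd36 (582 CPM, 531 to 635) were also above their infarct levels of 295 to 414 and 90.4 to 156 CPM. Apoe stood at 13848 CPM (13598 to 14102) against 37346 to 46303 CPM, Ccl8 at 15.4 CPM (8.22 to 26.4) against 226 to 726 CPM, and Ifit3, an interferon-stimulated gene, at 7.12 CPM (2.61 to 15.5) against 48.8 to 86.7 CPM. Among the other C1q-passing baseline cells Retnla was at 666 CPM and Lyve1 at 572 CPM, above the baseline cells of the rule. C1qa was at 2285 CPM (2184 to 2389) in the baseline cells of the rule, against 5142 CPM in the other baseline cells.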

How the data were processed

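Single-cell RNA libraries were made by the authors with Chromium 3' v3.1 chemistry and counted with Cell Ranger on mm10 (version 3.0.1 per the labels, 3.1.0 per the file headers). The deposited matrices hold raw UMI counts per gene and cell, with 1 matrix per library. Cells with 500 to 40000 UMIs and more than 200 genes were kept, doublets were not removed, and UMIs were summed per library and cell set, each sum being 1 replicate. Sums were compared in R 4.3.3 with edgeR 4.0.16 (TMM, filterByExpr, quasi-likelihood test), blocking on the library, and called below 0.01 after Benjamini-Hochberg adjustment, and Gpnmb, Spp1, C1qa, C1qb, C1qc and Ctsk were left out of the test. Both sets of a library come from the same heart, and their deviations from the group means correlated at 0.213 to 0.489. Summed counts were 11334509 to 11735356 UMIs for the chosen and 59757358 to 70385403 for the other cells of a library. The genes named are those past the threshold with the largest change in each direction, 12 for the first comparison and 6 for each other, given a mean of at least 20 CPM in the higher set and 1 direction in all 3 libraries, beside Trem2 and genes of the lists. The members, rule and lists were chosen with earlier results of these data known. The fit was tested on simulated data. Alternatives were DESeq2 1.42.0, its size factors, no filter, no block, leaving out hearts, thinning, a depth range, other membership rules, doublet removal by ranked Scrublet scores (scanpy 1.11.5) and under 10% mitochondrial UMIs. Intervals are exact (scipy 1.17.1) at 95% and cover counting error only. Promoters are RefSeq's (GRCm38.p6), used for letters only.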

Additional observations from a re-analysis of the deposited data

How the results depend on the processing

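Over the alternatives run, 97.7% to 100% of the genes called in each comparison kept their direction, and no named gene reversed. Dropping the library block, which pairs the sets of each heart, left 485 higher and 368 lower (154 by 2-fold) against the other C1q-passing cells, 8 and 6 against the Gpnmb-only cells, 272 and 248 against the Spp1-only cells, and 206 and 120 between the terciles. Thinning cells to 2000 UMIs gave, in the same order, 739 and 705, 39 and 28, 558 and 507, and 144 higher with 123 lower. Cells of 6000 to 12000 UMIs gave 749 and 784, 6 and 10, 532 and 567, and 132 and 89. DESeq2's Wald test gave 888 lower in the first comparison, 53 and 33 in the second, 622 and 549 in the third, and 270 and 182 in the last. With no filter on low counts 2111 were lower in the first comparison, and 213 were higher and 151 lower in the second. Leaving out each heart in turn gave 816 to 1686 higher and 736 to 1364 lower in the first, 57 to 142 lower in the second, and 345 to 707 higher and 218 to 607 lower in the last. The share of C1q-passing cells was 6.15% with a rule of 5 UMIs of each gene per 10000 and 6.19% after thinning to 5000 UMIs. The causes of these shifts were not tested. Genes named in the text were paired with the alternatives. The call was lost in 70 of 1968 such pairs in the first comparison and 43 of 159 in the second. In the third it was lost in 4 of 153 and in the last in 19 of 273. The pairs of the first comparison also count genes that did not pass to begin with and so had no call to lose. There 5 pairs gained a call, so 70 of 1968 is not the share of calls lost.

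Limits are the 3 hearts, the 1 baseline pool, the sum over cells that hides how evenly cells differ, and UMI thresholds that take deeper cells. The Gpnmb-only sums were the shallowest, at 1382391 to 2473391 UMIs per library, so a gene that did not pass there is not shown to be alike.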

Other observations

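Gene groups not described above also differed in the Gpnmb-high Spp1-high cells. Of 9 tested genes of osteopontin receptors, 3 were higher, the integrin chains Itgav (log2 0.27 ± 0.04, with overlapping libraries), Itgb5 (0.24 ± 0.04) and Itga5 (0.26 ± 0.06, with overlapping libraries), and 2 were lower, Itga8 and Itga9, with a list median of -0.09. None of the 3 passed without infarct 1. Cd44, which also binds osteopontin, was at 184, 162 and 164 CPM against 265, 145 and 195 CPM and did not pass. Among 23 growth factor genes 8 were higher and 4 lower (2 lower without infarct 1), with a median of 0.14. Igf1 stood at 373, 426 and 415 CPM against 213, 265 and 264 CPM, with no overlap (log2 0.80 ± 0.04), and Angptl4, a secreted inhibitor of lipoprotein lipase, rose by 1.96 ± 0.20. Vegfb rose by 0.72 ± 0.06 and the platelet-derived growth factor Pdgfc by 0.79 ± 0.08, while Pdgfb fell by 0.38 ± 0.04. Vegfa was at 12.4, 8.18 and 14.3 CPM against 15.2, 7.63 and 18.7 CPM and Tgfb1 at 205, 191 and 193 CPM against 196, 181 and 190 CPM, and neither passed.

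Matrix genes were lower more often than higher, with 7 lower and 3 higher of 15 and a median of -0.69, and with 2 lower without infarct 1. Fibronectin, Fn1, was at 496, 210 and 252 CPM against 1441, 267 and 890 CPM, so the sets overlapped (log2 -1.16 ± 0.20, adjusted p = 0.0316 without infarct 1). Within the chosen cells it was higher in the tercile with most Spp1, by 0.55 ± 0.13, again with overlapping libraries, and not past the threshold without infarct 1 (adjusted p = 0.0173). Nor did this rise pass DESeq2's Wald test (adjusted p = 0.331) or edgeR's test without the library block (adjusted p = 0.445). Ecm1 (0.65 ± 0.06) and the crosslinking enzyme Tgm2 (0.37 ± 0.06, with overlapping libraries, adjusted p = 0.0182 without infarct 1) were among those higher. Of 9 osteoclast genes the acid phosphatase Acp5 (0.76 ± 0.06) and Atp6v0d2 were higher, Nfatc1, the master regulator of osteoclasts, was lower (-0.26 ± 0.06, but with adjusted p = 0.0441 without infarct 1 and 0.0188 without infarct 2), and Tnfrsf11a, which encodes RANK, did not pass, at 59.1, 56.1 and 47.1 CPM against 56.2, 55.8 and 51.9 CPM. Of 13 genes of the integrated stress response none was higher and 7 were lower, among them Atf4 (-0.31 ± 0.04) and Atf3 (-0.61 ± 0.05), and without infarct 2 there were 2 higher and 5 lower. Of 10 complement genes other than C1q 2 were higher and 4 lower, with C3ar1 at 0.42 ± 0.04 and C3 at -1.13 ± 0.10.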
